A study of Mus musculus with 6 samples.

Results

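The Itm2 family of BRICHOS membrane proteins has 3 genes in the mouse, Itm2a, Itm2b, and Itm2c, and their transcripts were measured in single cells of melanoma tumors. The genes were chosen by name, from the symbols listed in the deposited expression values, and with their values in R499 tumors already known. They were 3 of 25215 listed genes. All 3 were among the 11264 genes with a transcript in more than 5 cells. R499 tumors held 36 of the 42 cells with Itm2a, and the 6 cells outside R499 only just exceed that limit by themselves.

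Tumors of 6 C57BL/6 mice in 3 conditions were compared, with 2 mice each. The tumors were grown from 50000 cells injected under the skin on day 0 and harvested on day 15. B16 tumors came from the melanoma line B16-F10 and were untreated. B16PD1 tumors came from the same line, in mice given 200 µg of anti-PD1, an antibody against an inhibitory receptor of T cells, on days 5, 8, and 11. R499 tumors were untreated and came from Res499, a line derived from a B16 tumor that relapsed after radiation and anti-CTLA4, so that R499 stands for 1 derived line. Both flanks of each mouse were injected, and a sort for CD45-negative cells, in which most immune cells are lost, came before full-length Smart-seq libraries were made on the ICELL8 system. The study profiled these conditions to relate tumor heterogeneity to checkpoint blockade.

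The retained cells numbered 507 of 602, with 75 to 91 in each tumor. Expression was given as TPM, a measure of transcript abundance that is scaled for transcript length and to the same total in every cell, so levels of different genes can be set side by side while the read depth of a value is unknown. Depth was therefore described by the genes detected in a cell, meaning those with TPM above 0, whose median was 3388.5 to 3838.5 in the 4 B16 and B16PD1 tumors, 3141 in R499015, and 3682 in R499016. The melanocyte markers Pmel, Dct, and Tyrp1 were detected in all 507 cells, which fits the labelled melanoma line. A TPM of 0 in a cell cannot be told apart from a transcript that was present and not captured. Doublets were not called, no chip position was named for more than 1 cell, and no cells had identical values.

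BRICHOS proteins are made as membrane or secreted precursors whose extracellular BRICHOS domain acts as a chaperone for another stretch of the same protein. Itm2b, also called Bri2, is cut by furin, shed by the protease ADAM10, and then cut within the membrane by SPPL2b. Mutations of its human counterpart cause familial British and Danish dementia, and both Itm2b and its relative Itm2c, or Bri3, bind the amyloid precursor protein APP and limit its processing. Itm2a is best known from developing cartilage and muscle and from T cells after selection or activation.

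All 3 genes encode proteins of similar length and lie on different chromosomes. On the mouse assembly GRCm38, Itm2a (ENSMUSG00000031239) lies at chrX:107397099-107403376 on the minus strand and has a coding sequence of 792 bases, or 263 codons before the stop. Itm2b (ENSMUSG00000022108) lies at chr14:73362226-73385289 on the minus strand with 801 coding bases. Itm2c (ENSMUSG00000026223) lies at chr1:85894281-85908675 on the plus strand with 810 coding bases. No annotated gene overlapped any of them on either strand. The coding sequences of Itm2b and Itm2c were the most alike, with 62.0% of aligned bases identical, against 56.7% for Itm2a and Itm2c and 55.9% for Itm2a and Itm2b. The longest run that Itm2b and Itm2c shared had 14 bases. The stretch around that run is printed here from the GENCODE transcripts because it shows how far apart the genes are for read assignment. It holds 48 coding bases of each gene, and capitals mark the 23 bases that are the same in all 3.
Itm2a, coding bases 457 to 504: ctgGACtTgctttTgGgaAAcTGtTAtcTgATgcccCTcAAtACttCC
Itm2b, coding bases 469 to 516: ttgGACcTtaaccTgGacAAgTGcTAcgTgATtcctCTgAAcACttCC
Itm2c, coding bases 472 to 519: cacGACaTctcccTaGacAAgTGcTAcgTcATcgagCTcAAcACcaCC
Within this stretch Itm2a shared 31 bases and Itm2c 32 bases with Itm2b. Over the whole annotated transcripts, none of the 1714 stretches of 31 bases in Itm2a, 2697 in Itm2b, and 2489 in Itm2c occurred in a transcript of any other gene, including the other members. Reads of this length or more therefore had no identical place in an annotated transcript of another gene.

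The sequences just before the annotated starts are shown because Itm2a and Itm2b, as described next, differed widely in how many cells held their transcript. The windows are from RefSeq on GRCm38.p6, all 3 members matched, and each window runs from 250 bases before the start to 50 bases after it. The printed part is the 250 bases before the start, read on the strand of the gene, and capitals mark the matches to the 7 motifs searched on both strands.
Itm2a, from the window chrX:107403311-107403610 on the minus strand: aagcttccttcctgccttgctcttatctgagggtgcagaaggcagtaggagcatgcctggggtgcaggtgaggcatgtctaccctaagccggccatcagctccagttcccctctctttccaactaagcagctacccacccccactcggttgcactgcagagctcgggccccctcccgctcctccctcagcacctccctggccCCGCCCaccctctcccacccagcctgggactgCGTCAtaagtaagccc
Itm2b, from the window chr14:73385240-73385539 on the minus strand: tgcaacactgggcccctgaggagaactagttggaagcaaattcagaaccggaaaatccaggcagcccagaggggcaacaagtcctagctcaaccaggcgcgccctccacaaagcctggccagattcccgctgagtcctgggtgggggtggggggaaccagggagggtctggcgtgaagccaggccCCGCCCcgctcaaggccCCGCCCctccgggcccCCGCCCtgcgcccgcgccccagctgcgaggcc
The motifs were the cAMP response element TGACGTCA, its core TGACG, which overlaps it, the E-box CACGTG bound by MITF, the M-box core TCATGTG, the TATA box TATAAA, the GC box GGGCGG, and the CCAAT box CCAAT. The Itm2a window held 1 GC box at bases -48 to -43 from the start and 1 TGACG core at bases -16 to -12, both as the reverse complement. The Itm2b window held 3 GC boxes, and the Itm2c window, at chr1:85894260-85894559 on the plus strand, held 2 GC boxes and 1 TGACG core. The GENCODE start of Itm2c, 85894281, lies near the far end of that window, before the RefSeq start. Most of the Itm2c window is therefore inside the gene as GENCODE annotates it. A GC box was in 35.7% of the 32851 windows of the genome, the TGACG core in 20.8%, and the other motifs, with no match in the 3 windows, in 1.79% to 37.4%. The Itm2a window had 7 CpG dinucleotides, the median of all windows, whereas the Itm2b window had 21 and the Itm2c window 20. A match in these letters is a description of the sequence and not a binding site.

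Itm2b and Itm2c transcripts were found in most melanoma cells of every tumor, and Itm2a transcripts in few cells outside R499. Itm2b was detected in 459 of 507 cells (90.5%, 95% Wilson interval 87.7 to 92.8), Itm2c in 432 (85.2%, 81.9 to 88.0), and Itm2a in 42 (8.28%, 6.19 to 11.0). These intervals, and those that follow, cover counting error only. On the TPM scale, which is per length, the mean over all cells was 297 for Itm2b and 105 for Itm2c. Itm2b ranked 559, Itm2c 1439, and Itm2a 7361 among the 11264 genes by that mean. The order of the level was Itm2b, Itm2c, and Itm2a in each of the 6 tumors.

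**Figure D1:**
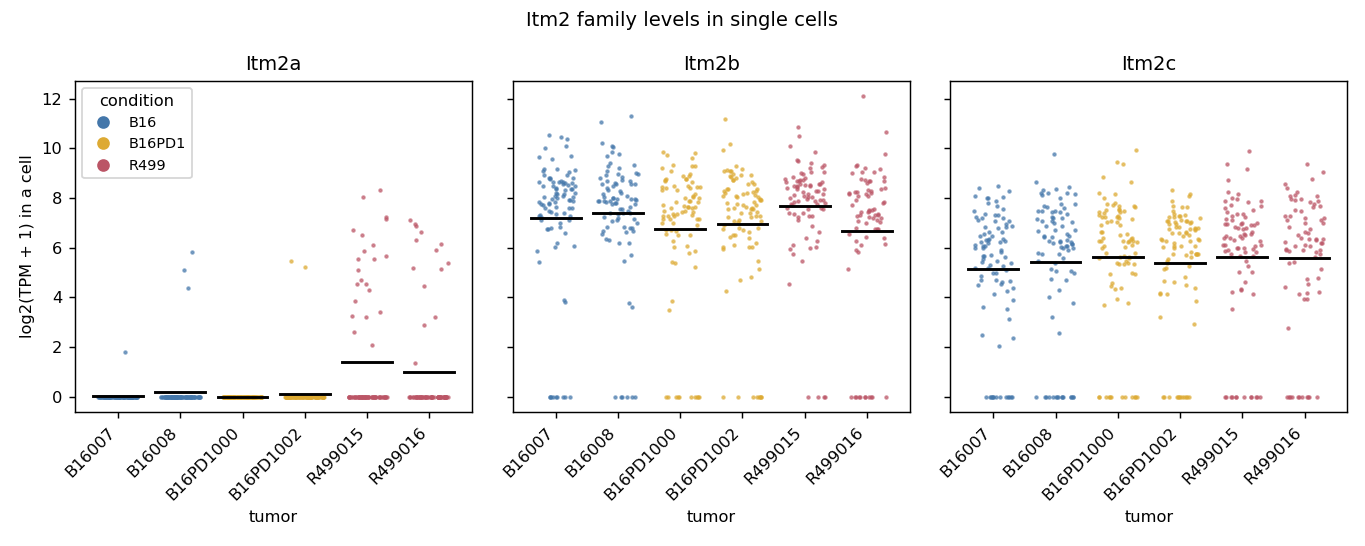
Level of each Itm2 transcript in every retained cell, as log2(TPM + 1) on the vertical axis, with the 6 tumors on the horizontal axis and condition as color. Points are cells and black lines are tumor means, which lie between 6.68 and 7.67 for Itm2b, between 5.13 and 5.64 for Itm2c, and at 1.41 and 0.98 for Itm2a in R499 against 0.18 or less elsewhere.

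Itm2a transcripts were in 22 of the 81 R499015 cells and 14 of the 75 R499016 cells, and in 0 to 3 cells of each B16 and B16PD1 tumor. The share was 27.2% in R499015 (95% Wilson interval 18.7 to 37.7) and 18.7% in R499016 (11.5 to 28.9). It was 1.10% in B16007 (1 of 91 cells), 3.49% in B16008 (3 of 86), and 2.27% in B16PD1002 (2 of 88), and B16PD1000 had 0 of 86 cells, which allows a share of up to 3.49% if 3 cells is the limit that a count of 0 allows (the upper Wilson bound is 4.28%). By condition the share was 22.9% ± 6.01 (SD, n = 2 tumors) for R499, 2.29% ± 1.69 for B16, and 1.14% ± 1.61 for B16PD1. B16 and B16PD1 did not differ beyond their spread, since their tumors overlapped. Of all 11264 genes, 4.47% had tumor means of log2(TPM + 1) in both R499 tumors above those of the 4 other tumors, and Itm2a was one of them. Itm2a was chosen with this pattern in view, so its R499 values are given as a description without a test.

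The level of Itm2a was also read within the cells that held it. In the 22 positive cells of R499015 the TPM ran from 3.28 to 319 with a median of 39.2, and in the 14 positive cells of R499016 from 1.6 to 138 with a median of 50.3. The 6 positive cells outside R499 had TPM of 2.52, 20.1, 33.4, 36.8, 43.3, and 56.0, which lie inside the R499 range. R499 tumors held more cells in which the transcript was detected, and whether a higher level per cell had a part in that was not tested. The upper quartile of the positive cells was 84.9 TPM in R499015 and 92.5 in R499016, above all 6 cells outside R499. These 6 cells are too few to compare levels. With a limit of 10 TPM in place of 0, Itm2a was counted in 17 cells of R499015 (21%), 11 cells of R499016 (14.7%), and 0 to 3 cells of each other tumor.

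The mean of log2(TPM + 1) over all cells of a tumor, which combines the share of cells and the level in them, was 1.41 in R499015 and 0.98 in R499016. It was 0.02 in B16007, 0.18 in B16008, 0.00 in B16PD1000, and 0.12 in B16PD1002. The limma fit to the 6 tumor means gave a difference of 1.10 (SE 0.15) for R499 minus B16 and of 1.14 (SE 0.15) for R499 minus B16PD1. These contrasts share the R499 tumors, and a difference on the log2(TPM + 1) scale understates the change of a gene that is at 0 in most cells. On the linear scale the mean TPM was 18.5 and 11.1 in the R499 tumors and 1.27 or less in the others.

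In both R499 tumors, Itm2a was found in a larger share of the cells with more genes detected. In R499 the share was 16.3% (14 of 86 cells) at or below the overall median of 3547 genes and 31.4% (22 of 70) above it, and in B16 and B16PD1 together it was 1.19% (2 of 168) and 2.19% (4 of 183). The 6 cells outside R499 were too few to show a dependence on depth, with 1 of 76 and 1 of 98 cells in B16PD1. By tumor, the shares at or below and above the median were 24.5% and 31.2% in R499015 and 5.41% (2 of 37) and 31.6% (12 of 38) in R499016, so that most of the R499 cells with Itm2a and few genes detected came from R499015. In the lower stratum the other tumors ran from 0% to 2.63%. The part of depth in the R499 values was not tested. Without the filter on cells, the share in the 602 cells was 26.7% in R499015, 19.0% in R499016, and 0.990% to 4.0% in the 4 other tumors.

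**Figure D2:**
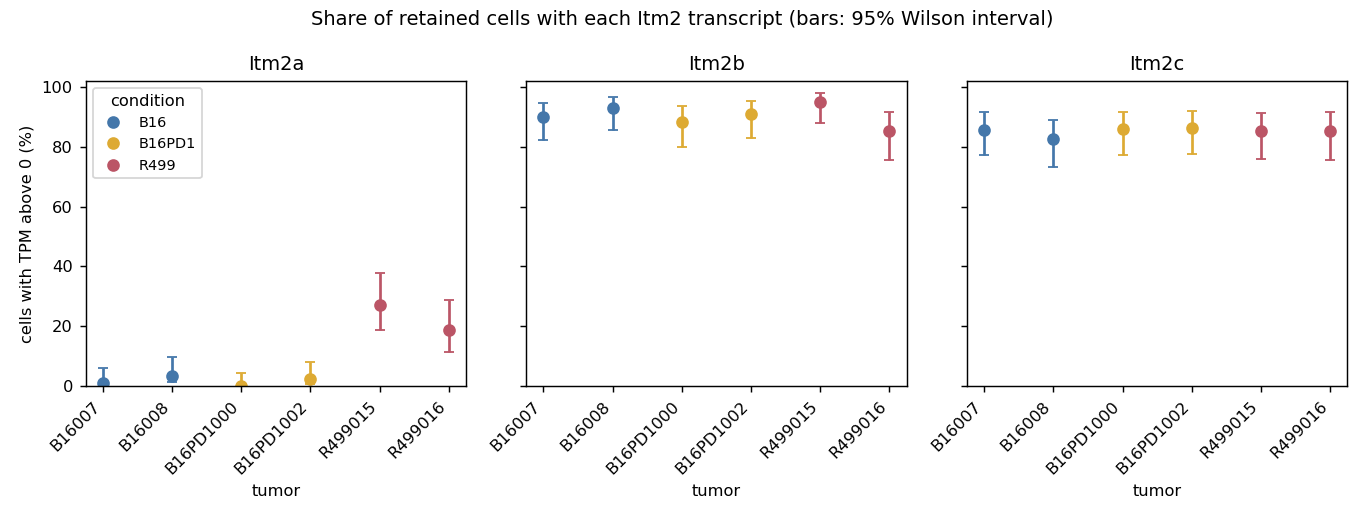
Percentage of retained cells with TPM above 0 for each Itm2 gene in each of the 6 tumors, colored by condition, with 95% Wilson intervals as bars. The R499 points for Itm2a sit at 27.2% and 18.7% above 3.49% or less in the other tumors, and the intervals for Itm2b (points at 85.3% to 95.1%) and Itm2c (points at 82.6% to 86.4%) overlap across all tumors.

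Itm2b was abundant in every tumor, and its R499 tumors were the highest and the lowest of the 6 by the share of cells and by the mean of log2(TPM + 1). It was detected in 90.1% of cells in B16007, 93.0% in B16008, 88.4% in B16PD1000, 90.9% in B16PD1002, 95.1% in R499015, and 85.3% in R499016. The mean of log2(TPM + 1) was 7.22 in B16007, 7.38 in B16008, 6.76 in B16PD1000, 6.96 in B16PD1002, 7.67 in R499015, and 6.68 in R499016. The R499 pair therefore spanned all other tumors. The B16 and B16PD1 tumors overlapped in the share of cells but not in the mean of log2(TPM + 1). The share of all genes with such an order was not counted. On the TPM scale the mean was 326 ± 17.7 (SD, n = 2 tumors) for B16, 252 ± 13.6 for B16PD1, and 315 ± 27.4 for R499. In the cells that held it, Itm2b ran from 10.2 to 4388 TPM with a median of 243. As a description, the difference was -0.13 (SE 0.34) for R499 minus B16 and 0.31 (SE 0.34) for R499 minus B16PD1, both smaller than their SE.

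The condition means of Itm2c on the log2(TPM + 1) scale lay closer together than those of the other members. It was detected in 85.7% of cells in B16007, 82.6% in B16008, 86.0% in B16PD1000, 86.4% in B16PD1002, 85.2% in R499015, and 85.3% in R499016. The mean of log2(TPM + 1) was 5.13 in B16007, 5.42 in B16008, 5.64 in B16PD1000, 5.40 in B16PD1002, 5.63 in R499015, and 5.57 in R499016. Both R499 tumors lay above both B16 tumors, and the B16PD1 tumors overlapped with each of the other conditions. How many of all genes show such an order was not counted. The mean TPM was 96.4 ± 21.5 (SD, n = 2 tumors) for B16, 103 ± 26.2 for B16PD1, and 119 ± 1.11 for R499. Its positive cells ran from 3.08 to 970 TPM with a median of 86.5. The described difference was 0.33 (SE 0.32) for R499 minus B16 and 0.08 (SE 0.32) for R499 minus B16PD1.

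The cells in which Itm2b or Itm2c was listed at 0 were cells with few genes detected. The 48 cells without Itm2b had a median of 1937 genes detected against 3767 in the others, and the 75 cells without Itm2c had 2393 against 3833.5. Above the overall median of 3547 genes, Itm2b was detected in 252 of 253 cells (99.6%) and Itm2c in 244 (96.4%), whereas at or below it the shares were 81.5% and 74.0% of 254 cells. In cells with many genes detected, both transcripts were thus found in nearly all cells.

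Anti-PD1 treatment of B16 tumors was the comparison that the choice of genes did not use, and no member passed the test in it. The difference B16PD1 minus B16 on the log2(TPM + 1) scale was -0.44 for Itm2b (SE 0.34, 95% interval -1.16 to 0.29, limma with Benjamini-Hochberg adjusted p = 0.989, unadjusted p = 0.218). It was 0.25 for Itm2c (SE 0.32, interval -0.44 to 0.93, limma adjusted p = 0.990) and -0.04 for Itm2a (SE 0.15, interval -0.36 to 0.28, limma adjusted p = 0.994). The Itm2b value was lower in both B16PD1 tumors than in both B16 tumors, by less than the fit could separate from the spread. Among all 11264 genes, limma called 0 at an adjusted p of 0.05, or 0%, and 528 had an unadjusted p under 0.05. The intervals include changes of more than 0.5 for Itm2b and Itm2c, so the test does not show that treatment left the family at the same level. Itm2a was near the floor here, in 4 of 177 B16 cells and 2 of 174 B16PD1 cells. Its B16 mean was 0.10, which leaves almost no room for a fall, so its narrow interval does not bound an effect of treatment.

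Of the genes linked to the family by structure, processing, or partners, none passed the test in any contrast. The list held 26 genes, of which 17 were detected in enough cells to be tested. Over these 17 genes limma called 0 in each contrast. At an unadjusted p under 0.05 there were 2 for B16PD1 minus B16, 2 for R499 minus B16, and 0 for R499 minus B16PD1, where 528, 1188, and 1149 of all 11264 genes had such a p. Of all genes tested, 0.0621% were called in R499 minus B16, with 6 higher and 1 lower (20 of 28 higher with the cell mean subtracted), and 0.0710% in R499 minus B16PD1, with 6 higher and 2 lower. A count of 0 among 17 genes is near that background. The median difference of the 17 genes was -0.13, -0.16, and 0.03 in the 3 contrasts, taken in that order, beside 0.01, -0.07, and -0.09 for all genes.

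Of the other BRICHOS genes, Cnmd and Tnmd, which limit blood vessel growth in cartilage and tendon, the surfactant protein gene Sftpc, and the gastric genes Gkn1 and Gkn2 were listed at 0 in every cell, and Gkn3 had a value in 1 cell. Bricd5 was the only one tested, with 48 cells (9.47%) and a difference of 0.20 (SE 0.19) for R499 minus B16. Apart from Itm2b and Itm2c, these tumor cells thus held few transcripts of BRICHOS genes.

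The list held 8 proteases of the kinds that process BRICHOS proteins, of which 6 were tested. The most abundant by mean TPM were Adam17, a sheddase of membrane proteins, at 61.7, and the intramembrane proteases Sppl2a, at 23.1, and Sppl2b, at 17.1. The mean of log2(TPM + 1) of Sppl2a was 3.0 in B16007, 2.43 in B16008, 2.30 in B16PD1000, 2.33 in B16PD1002, 1.5 in R499015, and 1.93 in R499016. Both R499 tumors lay below the other 4, with a difference of -1.0 (SE 0.32) from B16 that missed the threshold (limma adjusted p = 0.344). Adam17 differed by -0.71 (SE 0.32) in the same contrast (limma adjusted p = 0.448), and Sppl2b by -0.77 for B16PD1 minus B16 (limma adjusted p = 0.989). Furin, the convertase that cuts Itm2b, was detected in 5.72% of cells, and Pcsk5 and Pcsk6 were listed at 0. Over the 6 proteases the median difference was -0.30 for R499 minus B16 and -0.26 for B16PD1 minus B16.

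Of the 11 genes of APP, its relatives, and the secretases, 10 were tested, and Aplp1 was listed at 0. The most abundant by mean TPM were Psenen and Psen2, subunits of the gamma-secretase complex, at 326 and 198, and Bace2, a protease that also cuts the melanosome protein PMEL, at 146. App itself had a mean of 27.7 TPM in 39.6% of cells. The median difference of the 10 genes was -0.16 for R499 minus B16 and -0.10 for B16PD1 minus B16.

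**Figure D3:**
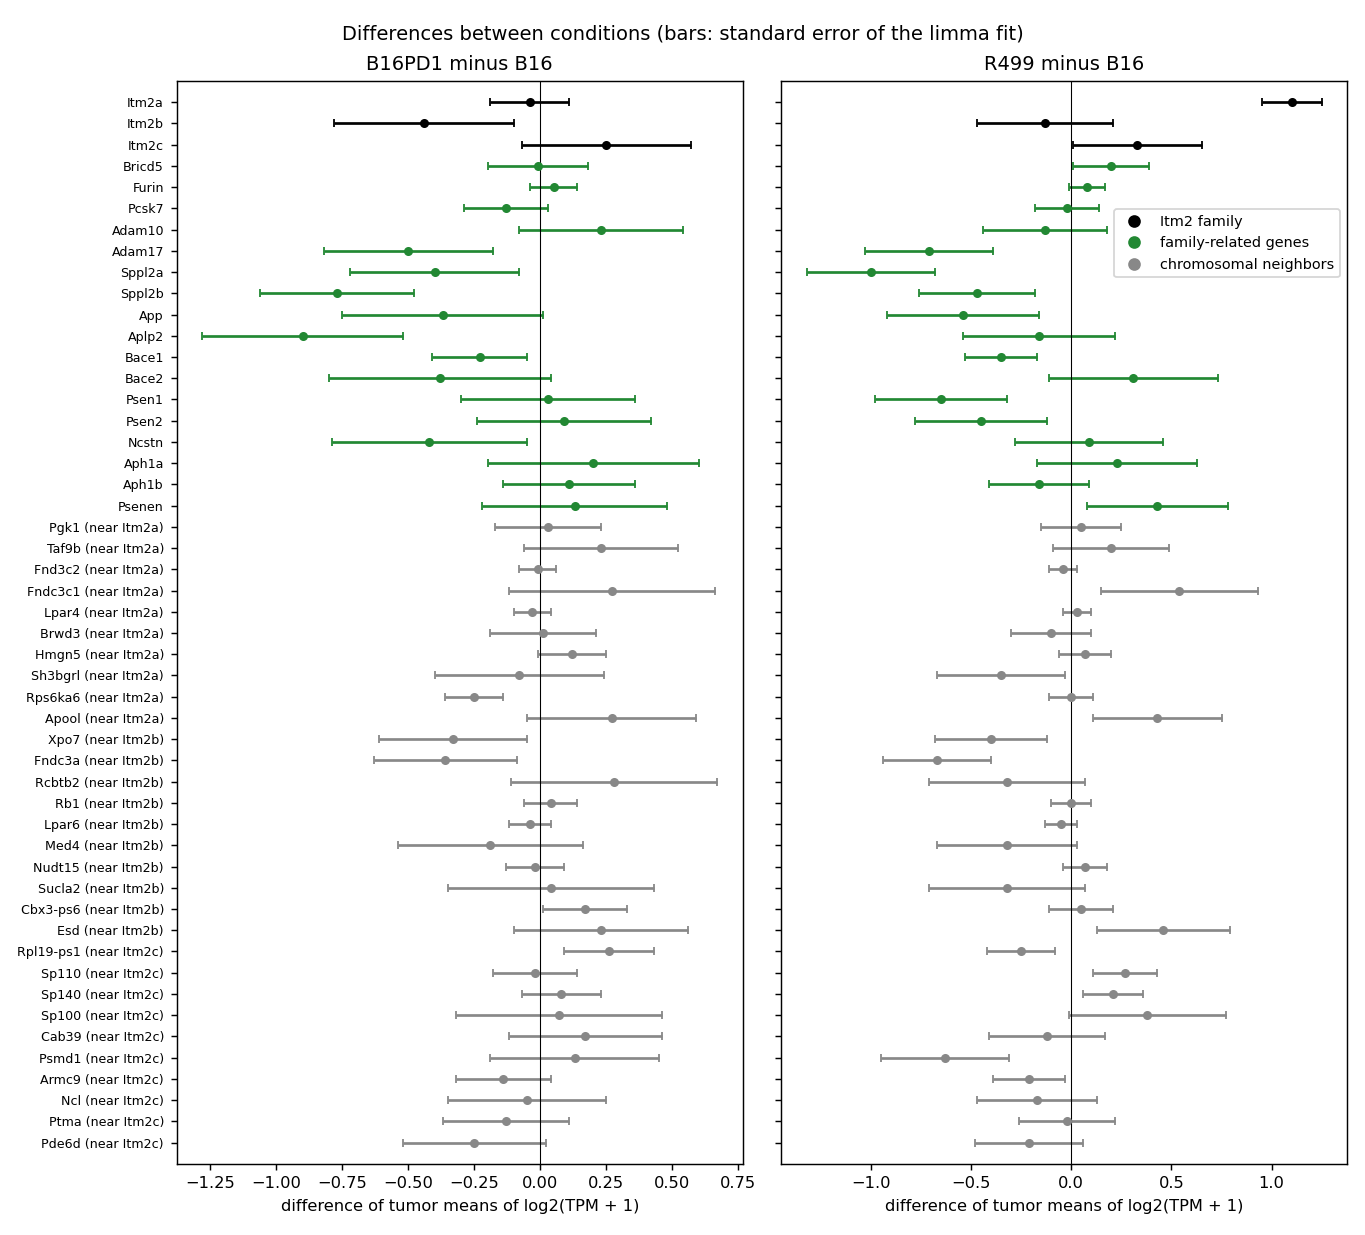
Difference of tumor means of log2(TPM + 1) for the 3 Itm2 genes (black), the 17 tested related genes (green), and 30 chromosomal neighbors (gray), for B16PD1 minus B16 on the left and R499 minus B16 on the right, with SE of the limma fit as bars. Itm2a sits at 1.10 in the right panel, where related genes and neighbors run from -1.0 to 0.54, and at -0.04 in the left panel.

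The genes next to the members were read in the same contrasts. Of 30 neighbors, 5 tested genes on each side of each member, none had both R499 tumors above the 4 others. With 4.47% of all genes in that order, a count of 0 is near that background. Fndc3a, Sh3bgrl, and Psmd1 had both R499 tumors below the 4 others, and the share of all genes in that order was not counted. Of the 30 neighbors limma called 0 in each of the 3 contrasts. The counts at an unadjusted p under 0.05 were 1, 1, and 3 in the order of contrasts given above. Of all 11264 genes, 528, 1188, and 1149 had such a p. The 10 neighbors of Itm2a on chromosome X differed by -0.35 to 0.54 for R499 minus B16, with a median of 0.04. The nearest were Lpar4, a lysophosphatidic acid receptor gene whose start is 476 kb away, at 0.03 (SE 0.07), and Brwd3, 1340 kb away, at -0.10 (SE 0.20).

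The nearest tested neighbors of Itm2b were Lpar6, another lysophosphatidic acid receptor gene, at -0.05 (SE 0.08), and Med4, a Mediator subunit, at -0.32 (SE 0.35) for R499 minus B16. Those of Itm2c were Cab39, a scaffold of the LKB1 kinase, at -0.12 (SE 0.29), and Psmd1, a proteasome subunit, at -0.63 (SE 0.32). All of these started 170 kb or less from the start of the member. Psmd1 did not pass the test (limma adjusted p = 0.511).

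Cells with Itm2a also held the other members. All 42 cells with Itm2a had Itm2b, against 89.7% of cells without it, and 38 of 42 had Itm2c (90.5% against 84.7%). In R499015, 22 cells held Itm2a and Itm2b where the product of their shares gives 20.9, and 19 held Itm2a and Itm2c where it gives 18.7. In R499016 both pairs were found in 14 cells where the product gives 11.9. Joint detection was thus close to the product of the shares, and slightly above it. Itm2b and Itm2c were found together in 401 of 507 cells, where the product gives 391.

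All 3 transcripts were found in 38 cells, of which 33 were R499 cells. A further 367 cells held 2 of them, 85 held 1, and 17 held none. The 17 cells with none had a median of 1653 genes detected against 3670.5 in the others, so they were among the cells with the least detected. Across the cells of a tumor, with genes detected regressed out, the Pearson r of the Itm2b and Itm2c levels had a mean of 0.00169 over the 6 tumors and ran from -0.215 to 0.182. The points are cells of the same mouse in each tumor and are not replicates.

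In R499016 the cells with Itm2a had more genes detected than the cells with it at 0, and in R499015 the medians were close. The median of genes detected was 4308 against 3050 in R499016 and 3211.5 against 3141 in R499015. The median mitochondrial percentage of TPM was higher in Itm2a cells of both tumors, at 4.25% against 2.90% in R499015 and 3.89% against 2.97% in R499016, and its part in the values that follow was not tested. The mean of log2(TPM + 1) of Itm2b was 7.81 against 6.42 in R499016 and 7.98 against 7.55 in R499015. For Itm2c it was 6.52 against 5.35 in R499016 and 5.61 against 5.64 in R499015. The higher Itm2c in positive cells was thus seen in the tumor where these cells had more genes detected, and the part of depth in it was not tested.

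Genes called in R499 by an earlier analysis of these data were also read in Itm2a cells, as a description. Kalrn was found in 13 of the 14 Itm2a cells of R499016 (92.9%, against 57.4% of its other cells) and in 8 of the 22 of R499015 (36.4% against 33.9%). The shares of Capn6, a calpain without protease activity, were 92.9% against 60.7% in R499016 and 77.3% against 64.4% in R499015. For Cav1, the main protein of caveolae, they were 78.6% against 60.7% and 86.4% against 57.6%. All of these shares were higher in Itm2a cells, with the gap for Kalrn seen mainly in R499016, where these cells also had more genes detected. The part of depth in these shares was not tested. Of the 36 R499 cells with Itm2a, 15 had Kalrn at 0.

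**Figure D4:**
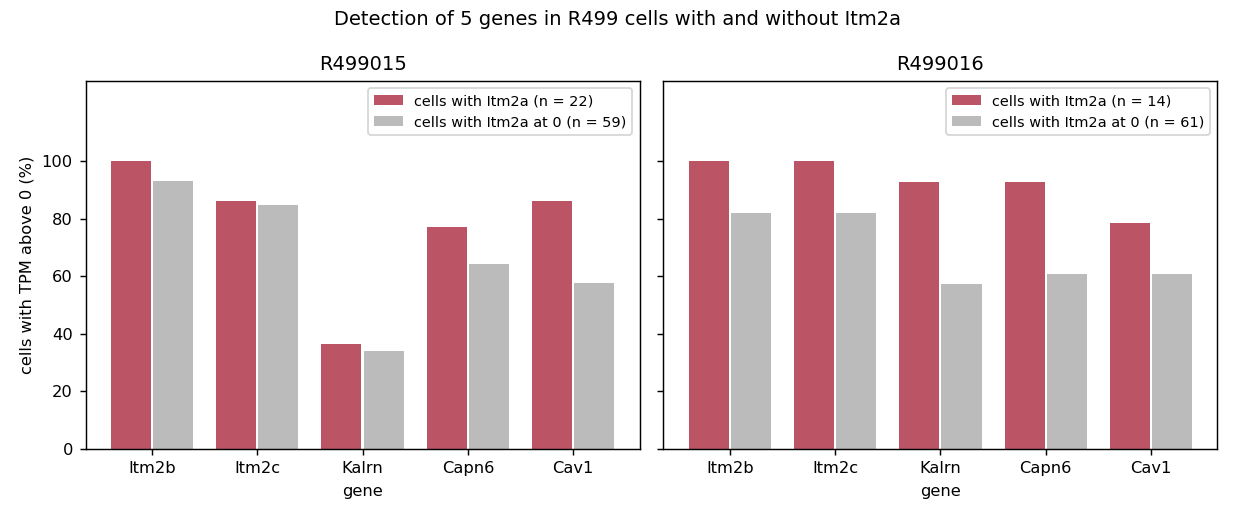
Percentage of R499 cells with TPM above 0 for Itm2b, Itm2c, Kalrn, Capn6, and Cav1, in cells with Itm2a (red) and cells with Itm2a at 0 (gray), for the 2 R499 tumors. Kalrn reaches 92.9% of Itm2a cells in R499016 and 36.4% in R499015, and the gap to the gray bars is wider in R499016 for each gene except Cav1.

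The R499 cells with Itm2a carried melanocyte markers and few of the listed markers of other cell types. Mlana, Pmel, Dct, Tyrp1, and Tyr were detected in all 36 of them. Sox10, a transcription factor of the neural crest, was in 80.6% against 58.3% of the 120 R499 cells with Itm2a at 0. Mitf was in 94.4% against 90.0%. These shares pool both R499 tumors, and the part of depth in them was not tested. The summed TPM of the 7 melanocyte markers was 17381 on average in Itm2a cells and 16750 in the others. Of the 6 T cell markers, 5 were at 0 in all 36 cells, including Cd3d, Cd3g, Cd8a, and Cd4, and Cd3e had a value in 1 cell. All 5 endothelial and both keratinocyte markers were at 0, and of 7 fibroblast and pericyte markers only Pdgfrb had a value, in 1 cell.

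Of the 3 chondrocyte markers, Acan and Col2a1 were at 0. Sox9, which is also made in the melanocyte lineage, was detected in 11.1% of Itm2a cells and 6.67% of the others. The summed TPM of the 3 averaged 1.45 in Itm2a cells and 0.346 in the others. At least 1 of the 5 other immune markers was detected in 11.1% of Itm2a cells (4 of 36) and 7.50% of the others (9 of 120). Ptprc, which encodes the sorted-out CD45, and Itgam were at 0 in all R499 cells, while Lyz2 had a value in 1 Itm2a cell and Csf1r and Cd79a in 2 each. Their summed TPM averaged 3.65 and 3.59, and reached at most 83.6 in an Itm2a cell. By tumor, the share with any of these markers was 4.65% to 10.2%, with the R499 tumors inside that range at 7.41% and 9.33%. In these R499 cells the T cell markers, Acan, and Col2a1 were thus at or near 0, while Sox9 was detected in some of them. Among the 6 Itm2a cells outside R499, Lyz2, Cd79a, Pdgfrb, Sox9, and Col2a1 each had a value in 1 cell. The other listed markers outside the melanocyte list were at 0 in these 6 cells. Mlana, Pmel, Dct, Tyrp1, Tyr, and Mitf were detected in all 6, and Sox10 in 5. No muscle marker was in the list.

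Over the 6 tumor means, the genes most like Itm2a were other genes that were high in both R499 tumors. Among 2070 genes whose means spanned at least 1 on the log2 scale, the highest Pearson r was 0.970 for Fscn1, an actin-bundling protein, then 0.962 for Arpc1b, a subunit of the Arp2/3 complex, and 0.958 for Capn6. In all, 20 genes (0.966%) had r above 0.9. The mean of log2(TPM + 1) of Fscn1 was 1.89 and 1.84 in the R499 tumors and 0.21 to 0.44 in the others. With 6 points in which the R499 pair stands apart, many genes raised in R499 give a high r.

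For Itm2b the most similar genes were Scrn1, with r = 0.846, Bcl7b, a chromatin remodeling subunit, with 0.825, and Tpm1, a tropomyosin, with 0.824. They had the same order of R499015 above R499016, which a choice by r favors. For Itm2c they were Trappc2l, a vesicle tethering subunit, with 0.935, Hmgb2, a chromatin protein, with 0.934, and Nup43, a nuclear pore subunit, with 0.918. Of 2071 genes, 9 (0.435%) had r above 0.9 with Itm2c and 0 with Itm2b. The named genes were picked as the highest r over only 6 tumors, so their values give no support for a link. Both genes of a pair were also measured in the same cells. Across cells within tumors, the highest mean r of any gene was 0.298 with Itm2a (over the 2 R499 tumors), 0.245 with Itm2b, and 0.239 with Itm2c (over 6 tumors), which is weak in sparse values.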

How the data were processed

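Single-cell transcriptomes of 6 tumors were analysed, 2 in each condition, with the mouse as the replicate. The authors aligned reads with STAR in 2-pass mode and quantified them with RSEM, both at default parameters, and deposited TPM per gene and cell. Versions and annotation are not given in the sources used here, and the submitters' processing notes name the build mm10. The TPM of each cell summed to 999999.44 to 1000000.59. Cells carry a tumor number that is in no label, so each tumor was assigned to its condition only, and all columns were used.

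Retained cells had more than 1000 genes detected and a mitochondrial part of TPM under 10%, and tested genes had a transcript in more than 5 of these cells, which left 507 cells and 11264 genes. The minimum number of mapped reads that the study used was not applied, since TPM holds no read counts. Log2(TPM + 1) was averaged per tumor, and all 6 tumors were fitted with limma 3.58.1 in R 4.3.3 (eBayes with a trend, two-sided, Benjamini-Hochberg adjustment over all 11264 genes, threshold 0.05). Shares of cells have 95% Wilson intervals. Other steps used Python 3.11.15 with scipy 1.17.1, pandas 2.3.3, numpy 2.4.6, and matplotlib 3.10.9. Positions are from GENCODE M21 (25103 of 25215 gene IDs matched), and promoter windows from RefSeq. The fit was tested on simulated data.

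The members and lists were chosen with earlier results of these data known. Named genes are the members, the related genes past the threshold or else the 3 most abundant of each group, the nearest tested neighbor on each side, Kalrn, Capn6, and Cav1, and the 3 genes most like each member. App, Furin, the related genes at 0, and the marker genes were named after their values were seen. Results were recomputed with pseudocounts of 0.1 and 10, with the log2 of the mean TPM plus 1, under other filters on genes and cells, after subtracting each cell's mean, with a covariate for genes detected, with no trend in limma, with a limit of 10 TPM for the shares, and without each tumor in turn.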

Additional observations from a re-analysis of the deposited data

How the results depend on the processing

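Itm2a was higher in R499 under all 15 alternatives of both R499 contrasts. The R499 minus B16 and R499 minus B16PD1 differences were 1.77 and 1.84 with a pseudocount of 0.1, 0.50 and 0.52 with 10, 3.33 and 3.47 as log2 of the mean TPM plus 1, and 0.83 and 0.70 with genes detected as a covariate, and leaving out a tumor gave 0.88 to 1.31 and 0.92 to 1.35. Itm2a is in 42 cells and could not be fitted among genes in more than 50 cells. Its B16PD1 minus B16 difference turned positive with the covariate (0.12) and without B16008 (0.04) or B16PD1000 (0.02), and leaving out a tumor gave -0.12 to 0.04, with limma adjusted p of 0.962 to 1.0 over all alternatives. For Itm2b and Itm2c that difference kept its sign, at -0.54 to -0.16 (limma adjusted p 0.915 to 0.997) and 0.09 to 0.39 (0.940 to 0.999). The R499 differences of Itm2b rest on single tumors: R499 minus B16 was -0.62 without R499015 and 0.37 without R499016, R499 minus B16PD1 was -0.18 and 0.80, and the covariate gave -0.60 and -0.45. For Itm2c, R499 minus B16 was 0.13 without the filter on cells, 0.56 in cells with more than 2000 genes, 0.13 with the covariate, and 0.18 to 0.47 leaving out a tumor. R499 minus B16PD1 was -0.16 without the filter on cells, -0.23 with the covariate, and -0.03 to 0.20 leaving out a tumor. The cause of these changes was not tested.

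The share of cells was 95.1% for Itm2b and 89.5% for Itm2c in cells with more than 2000 genes, and for Itm2c 83.4% at 10 TPM or more and 81.2% without the filter on cells. Genes called in R499 minus B16 (7) and R499 minus B16PD1 (8) came to 11 and 13 with a pseudocount of 0.1, 3 and 3 with 10, 20 and 14 for genes in more than 50 cells, 22 and 16 without the filter on cells, 20 and 14 in cells with more than 2000 genes, and 28 (20 higher) and 22 (16 higher) with the cell mean subtracted, where the median of all genes moved from -0.07 to 0.03 and from -0.09 to 0.05. They came to 0 in both as log2 of the mean TPM plus 1, without the filter on genes, with the covariate, and without a trend, and leaving out a tumor gave 0 (without B16008) to 10 and 3 (without B16PD1000 or R499015) to 8. Leaving out R499015 gave 4 in R499 minus B16. B16PD1 minus B16 had 0 calls, and 0 to 2 leaving out a tumor (2 without B16007). Related genes and neighbors had 0 calls in all 16 alternatives of each contrast. No paired analysis was possible because the columns of the table carry no replicate number of the labels. With 2 tumors a condition and no read counts, small differences of Itm2b and Itm2c and low Itm2a levels outside R499 were not resolved.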
